A study of Mus musculus with 6 samples.

Results

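The mitosis, kinetochore and cytokinesis genes are 53 genes whose products drive a cell from the entry into mitosis to the separation of the daughter cells. They were found by matching the NCBI gene identifiers of the deposited table to gene symbols, and all 53 were among its 18446 genes. RNA had been sequenced from naive CD4+ T cells, helper T cells before their first contact with antigen, sorted as CD44lo CD62Lhi cells from the spleen and lymph nodes of C57BL/6 mice aged 6 to 8 weeks. One set of libraries is labelled Zak-deficient. For these cells the labels give both the genotype Zak-/- and a deficiency conditional to T cells, which leaves the kind of deletion unsettled, and no Cre driver is named. The other set came from wild-type (WT) mice. Each set was taken at 0, 6 and 48 h of culture with anti-CD3 and anti-CD28, antibodies that bind the T cell receptor complex and a costimulatory receptor. The 2 genotypes and 3 times gave 6 libraries, 1 per group, and the labels do not say whether animals were pooled. With no replicates, no spread between like samples is known, no test was made, and every difference below is between single libraries.

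A resting naive T cell sits outside the cell cycle. After activation it grows, copies its DNA and then divides, and the genes for mitosis are switched on last, as cells approach division. At that point cyclin B and its kinase partner start mitosis, condensin and topoisomerase compact the chromosomes, and kinetochores built on centromeres attach them to spindle microtubules. The spindle checkpoint holds back the anaphase-promoting complex (APC/C, a ubiquitin ligase) until all chromosomes are attached. The APC/C then releases separase to part the sister chromatids, and the central spindle directs the cut between the daughter cells.

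Many promoters of mitotic genes are known to carry a cell cycle genes homology region (CHR), to which the MuvB core of the DREAM and MYBL2 complexes binds, and CCAAT boxes, to which NF-Y binds. Promoters were present in the RefSeq table (GRCm38.p6, the build of mm10) for 46 of the 53 genes, and Incenp, Dlgap5, Kif20a, Smc4, Aurkb, Spc24 and Tpx2 were not in it. The 120 bases before the RefSeq start are printed below for 9 genes, 5′ to 3′ on the strand of the gene. Cdc20, Ube2c, Espl1 and Kif11 represent genes with a large difference at 48 h and both motifs. Ccnb1 has a pair of CCAAT boxes and no CHR, and Kif15 is the 1 gene that was 2-fold higher at 6 h. Bub3 and Fzr1 had small differences at 48 h, and Pttg1 was lower at 48 h. Capitals mark the CHR (TTTGAA, or TTCAAA where it lies on the other strand) and the CCAAT box (CCAAT, or ATTGG on the other strand), and neither motif contains the other. The RefSeq starts used for Pttg1, Espl1 and Bub3 lie inside the span that RefSeq gives the gene. All of the Pttg1 stretch, and the end of the other 2, is thus within the annotated gene, and a further start upstream of Pttg1 was not examined. Bub3 has 2 RefSeq starts, and only the stretch before 1 of them is shown.
Cdc20 (chr4:118437344-118437463, minus strand): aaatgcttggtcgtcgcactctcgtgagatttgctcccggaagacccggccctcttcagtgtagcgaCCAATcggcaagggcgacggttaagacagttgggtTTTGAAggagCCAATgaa
Ube2c (chr2:164769809-164769928, plus strand): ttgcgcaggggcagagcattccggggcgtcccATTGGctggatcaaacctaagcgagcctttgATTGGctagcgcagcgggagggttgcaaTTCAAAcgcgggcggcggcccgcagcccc
Espl1 (chr15:102296173-102296292, plus strand): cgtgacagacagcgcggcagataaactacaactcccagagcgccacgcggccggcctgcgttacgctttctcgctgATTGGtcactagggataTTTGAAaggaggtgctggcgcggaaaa
Kif11 (chr19:37376262-37376381, plus strand): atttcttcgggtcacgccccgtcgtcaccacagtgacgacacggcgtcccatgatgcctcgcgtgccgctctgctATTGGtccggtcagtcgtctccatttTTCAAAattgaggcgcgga
Ccnb1 (chr13:100786487-100786606, minus strand): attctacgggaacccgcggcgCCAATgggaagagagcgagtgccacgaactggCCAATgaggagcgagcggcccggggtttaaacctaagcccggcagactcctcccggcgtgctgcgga
Kif15 (chr9:122950961-122951080, plus strand): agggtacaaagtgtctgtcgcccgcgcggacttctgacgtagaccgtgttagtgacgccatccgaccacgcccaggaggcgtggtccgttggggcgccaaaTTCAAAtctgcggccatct
Bub3 (chr7:131560250-131560369, plus strand): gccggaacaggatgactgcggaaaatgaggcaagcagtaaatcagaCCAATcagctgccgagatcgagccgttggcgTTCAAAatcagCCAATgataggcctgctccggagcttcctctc
Fzr1 (chr10:81378371-81378490, minus strand): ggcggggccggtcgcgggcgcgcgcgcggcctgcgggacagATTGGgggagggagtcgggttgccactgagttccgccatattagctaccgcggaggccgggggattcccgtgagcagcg
Pttg1 (chr11:43425982-43426101, minus strand): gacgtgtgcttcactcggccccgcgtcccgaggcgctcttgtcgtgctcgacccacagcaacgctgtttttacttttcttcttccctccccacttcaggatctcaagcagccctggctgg

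In the window from 250 bases before to 50 after the start, 34 of the 46 genes (73.9%) held a CHR on either strand, against 14.4% of the 8400 genes averaging at least 1 FPKM that have a promoter in the table, and 20.2% of all 27025 genes with one. A CCAAT box was found in 34 of 46 as well (73.9%), against 44.1% and 41.1% of the same gene sets. Both motifs were found in 28 of 46 (60.9%), against 6.25% and 7.97%. The CHR lay close to the start. Of 47 CHR matches, 34 began within 50 bases of it, and 30 of the 46 genes (65.2%) had such a match, against 3.89% of the 8400 genes. Of 81 CCAAT matches, 52 began between 120 and 11 bases before the start. Matches were counted from each RefSeq start of a gene. Bub3, Prc1 and Ect2 have 2 such starts and Cenpk has 3, so 1 site can be counted more than once. Pairs of CCAAT boxes on 1 strand, 30 to 35 bases apart, were found in 7 genes (15.2%), among them Ccnb1, Ccnb2 and Aurka, against 2.70% of the 8400. The promoters of 32 DNA replication genes, which are also active in dividing cells, held a CHR in 15.6% and a CCAAT box in 68.8%. Among other lists of mitotic genes the share with a CHR varied. It was 10 of 25 further kinetochore and centromere genes (40%), 7 of 15 further cytokinesis genes (46.7%) and 2 of 3 condensin II genes. Lower shares were found in mitotic entry and exit regulators (3 of 14) and in cohesin genes (2 of 10). The same held for centrosome genes (2 of 10) and core APC/C subunits (2 of 13). Within the 46, the CHR did not follow the size of the difference at 48 h: it was in 23 of the 32 genes (71.9%) that were at least 8-fold higher in both genotypes and in 11 of the other 14 (78.6%). By the CCAAT box the same groups differed more, with 26 of 32 (81.3%) against 8 of 14 (57.1%). Both motifs were in 21 of 32 (65.6%) against 7 of 14 (50%), and CCAAT pairs in 6 of 32 against 1 of 14. A match of letters is a description and does not show binding.

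**Figure D1:**
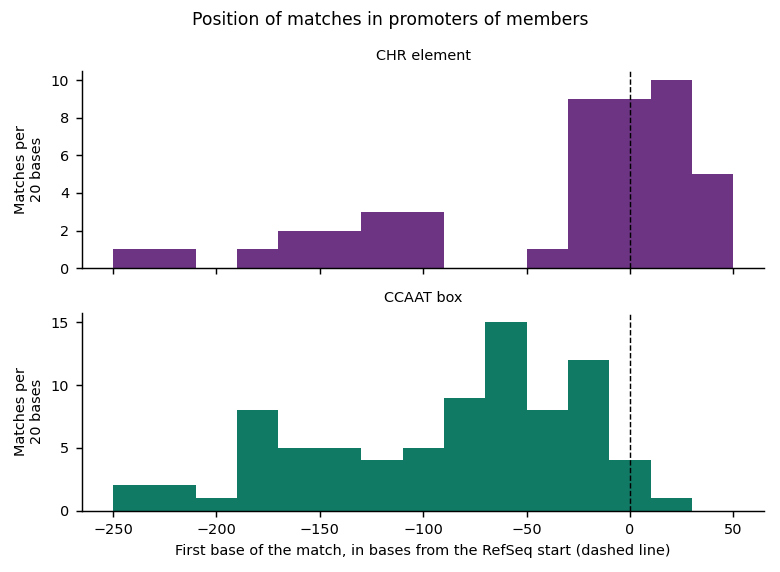
First base of each CHR match (upper panel, 47 matches) and CCAAT match (lower panel, 81 matches) in promoters of the 46 genes, in bases from the RefSeq start (dashed line), as matches per 20 bases. CHR matches gather at the start, where 34 of 47 lie within 50 bases, and CCAAT matches before it, where 52 of 81 lie between 120 and 11 bases upstream.

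Levels are FPKM, which scale fragments to transcript length and to mapped fragments, as deposited by the authors, so they may be compared between genes of different length. Library sums of FPKM lay between 496045 and 546113, and each library had from 1777 to 2793 genes listed at 0. The number of reads is not known from these values, so no counting error can be given. Map3k20, which encodes the kinase Zak, stood at 0.10, 0.10 and 1.61 FPKM at 0, 6 and 48 h in the libraries labelled Zak-deficient and at 0.17, 0.19 and 1.35 FPKM in the WT libraries. Its gene-level value thus did not separate the genotypes at 48 h, and it cannot show the loss of an exon. The 10 markers of naive CD4+ T cells summed to between 2002 and 4268 FPKM. The markers of B cells (5 genes) summed to 6.98, 5.27 and 7.25 FPKM in the libraries labelled Zak-deficient and 3.27, 4.75 and 5.38 FPKM in WT at 0, 6 and 48 h, and Cd8a with Cd8b1 to between 8.88 and 12.8 FPKM. The sums were at most 7.49 FPKM for 6 myeloid genes, 3.01 for 4 dendritic, 3.51 for 3 NK and 1.84 for 3 erythroid genes, and Lyz2, Cd14, S100a8, Itgax, Ncr1, Klrb1c, Hba-a1 and Hbb-bs were each listed at 0 in at least 1 library.

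At 48 h, nearly the whole mitotic set was far above its resting level. Counts here are of genes at least 2-fold apart on log2(FPKM+1), a scale that understates the change of genes near 0. Of the 53 genes, 50 were higher and 2 lower at 48 h than at 0 h in the libraries labelled Zak-deficient, and the same 50 genes were higher and the same 2 lower in WT. Of the 10347 genes averaging at least 1 FPKM over the 6 libraries, 18.5% were higher and 12.0% lower at 48 h in the libraries labelled Zak-deficient, and 17.8% were higher and 12.3% lower in WT. All 53 mitotic genes passed that minimum. Of them, 24 were under 1 FPKM in both 0 h libraries and passed it only through their later levels. The minimum thus depends on the 48 h level, and the counts against it are a description. The median of the 53 was a log2 difference of 3.63 (12.4-fold) in the libraries labelled Zak-deficient and 3.65 (12.6-fold) in WT, against 0.06 and 0.00 for all 10347 genes. Close to the 2-fold limit, Fzr1 fell below it in both genotypes with a common FPKM sum (0.97 and 0.98), Ndc80 did so in the libraries labelled Zak-deficient with each scaling (0.88 to 0.94), and Pttg1 there with a pseudocount of 5 FPKM (-0.98). In RNA from a whole culture, a larger share of dividing cells and more of these messengers per cell cannot be told apart.

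**Figure D2:**
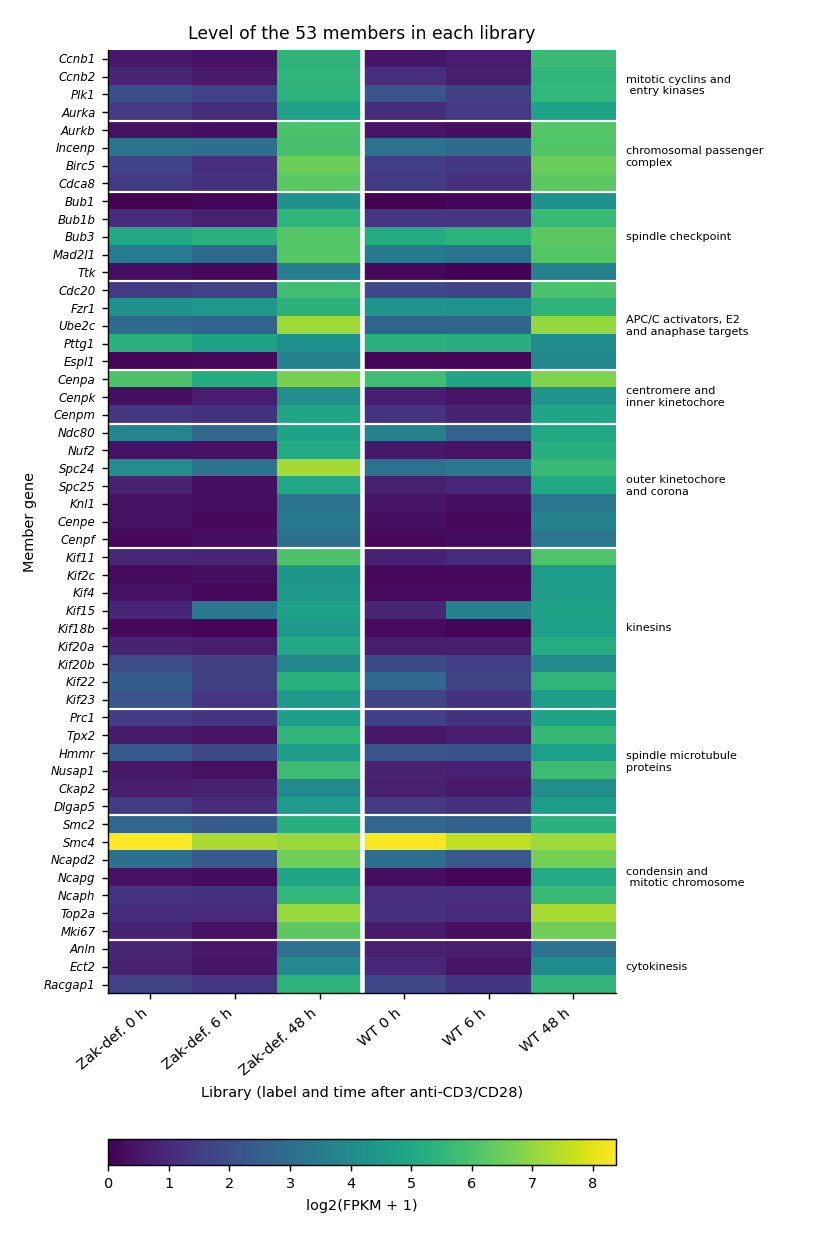
Level of each of the 53 genes as log2(FPKM + 1), by colour, in the 3 libraries labelled Zak-deficient (left) and the 3 WT libraries (right) at 0, 6 and 48 h, with genes grouped by role. Most genes are dark at 0 and 6 h and bright at 48 h in both sets, while Smc4 is brightest at 0 h (330.4 and 318 FPKM).

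In the resting libraries the median of the 53 genes was 1.13 FPKM in the library labelled Zak-deficient and 1.24 FPKM in WT. Under 1 FPKM in both 0 h libraries were 24 of the 53, 28 were at 1 FPKM or more in both, and 6 genes, Smc4, Cenpa, Pttg1, Bub3, Fzr1 and Ndc80, were at 10 FPKM or more in both. None was listed at 0 in any library. The 53 genes summed to 599, 367 and 2402 FPKM at 0, 6 and 48 h in the libraries labelled Zak-deficient and to 571, 408 and 2457 FPKM in WT, which is 0.121%, 0.0723% and 0.440% of all FPKM in the one set and 0.114%, 0.0762% and 0.455% in the other. Smc4 alone made up 5.74% of the sum of the 53 at 48 h in each genotype, against 55.1% (library labelled Zak-deficient) and 55.8% (WT) at 0 h. Among the 10347 genes ranked by their log2 difference at 48 h, members of this set filled 22 of the first 100 places in each genotype, although they are 0.512% of those genes. They filled 13 of the first 50 places in the libraries labelled Zak-deficient and 12 in WT. The minimum that defines the 10347 genes includes the 48 h level, so these places are a description only.

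Mitotic entry is set off by the B-type cyclins, which activate the kinase CDK1, and by the kinases Plk1 and Aurka. All 4 genes were higher at 48 h in both genotypes. Ccnb1 (cyclin B1; chromosome 13, 100778739 to 100786486, mm10, minus strand) stood at 0.46, 0.34 and 42.1 FPKM at 0, 6 and 48 h in the libraries labelled Zak-deficient and at 0.40, 0.60 and 51.6 FPKM in WT. It was thus near 0 until 6 h and high only at 48 h, 29.5-fold over 0 h in the libraries labelled Zak-deficient and 37.6-fold in WT. Ccnb2, the second B-type cyclin, reached 43.6 FPKM in the library labelled Zak-deficient and 44.7 FPKM in WT. Plk1 reached 41.7 and 45.2 FPKM, against 3.07 and 3.37 FPKM at 0 h. Aurka, the kinase of the spindle poles, reached 26.1 and 28.3 FPKM.

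The chromosomal passenger complex, which corrects faulty attachments and later guides cytokinesis, consists of the kinase Aurkb, its scaffold Incenp, survivin (Birc5) and borealin (Cdca8). Aurkb (chromosome 11, 69045624 to 69051664) had 0.29, 0.24 and 62.8 FPKM at 0, 6 and 48 h in the libraries labelled Zak-deficient, against 0.35, 0.28 and 71.0 FPKM in WT. Its log2 difference at 48 h of 5.63 and 5.74 placed it 9th and 11th among the 10347 genes. Incenp stood at 8.41, 7.39 and 60.6 FPKM in the libraries labelled Zak-deficient and at 7.71, 6.77 and 67.3 FPKM in WT. RNA for the scaffold was thus present before stimulation while RNA for its kinase was close to 0, and protein was not measured. Birc5 reached 89.1 and 89.2 FPKM and Cdca8 74.9 and 76.2 FPKM at 48 h.

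The 5 spindle checkpoint genes were all higher at 48 h and differed in their resting level. Bub1, a kinase that recruits the checkpoint to kinetochores, was at 0.04, 0.08 and 17.7 FPKM in the libraries labelled Zak-deficient and 0.03, 0.11 and 18.1 FPKM in WT, and Ttk, the kinase MPS1 that starts the checkpoint, reached 11.04 and 11.95 FPKM from 0.23 and 0.14 FPKM. Bub3, the partner protein of Bub1 and Bub1b, had 31.0, 39.4 and 70.7 FPKM at 0, 6 and 48 h in the libraries labelled Zak-deficient, against 34.3, 41.3 and 75.2 FPKM in WT. It was already high before stimulation, and its difference at 48 h (2.25-fold and 2.16-fold) was among the smallest of the set. Mad2l1, which encodes the inhibitor MAD2, stood between, with 9.61, 6.05 and 70.5 FPKM in the libraries labelled Zak-deficient and 9.33, 7.74 and 71.4 FPKM in WT. Bub1b (BUBR1) reached 44.8 and 49.7 FPKM.

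The APC/C has a mitotic activator, Cdc20, and a second one, Fzr1 (CDH1), which acts from late mitosis into G1. Cdc20 (chromosome 4, 118432901 to 118437343) was at 1.66, 2.14 and 55.3 FPKM in the libraries labelled Zak-deficient and at 2.61, 2.28 and 62.5 FPKM in WT. Fzr1 (chromosome 10, 81366879 to 81378370) was at 18.4, 22.3 and 40.5 FPKM in the libraries labelled Zak-deficient and at 19.4, 19.0 and 42.3 FPKM in WT. RNA for the mitotic activator was therefore low at rest and 21.2-fold and 17.6-fold higher at 48 h. RNA for the G1 activator was present at rest and 2.14-fold and 2.12-fold higher at 48 h. Ube2c, the ubiquitin-conjugating enzyme that works with the APC/C, had 6.54, 5.35 and 143 FPKM in the libraries labelled Zak-deficient, against 5.51, 5.70 and 132 FPKM in WT, the second highest level of the set at 48 h in the library labelled Zak-deficient and the third highest in WT.

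The genes for separase and its inhibitor differed in opposite directions. Espl1, which encodes separase, the protease that cuts cohesin at anaphase, stood at 0.08, 0.13 and 12.4 FPKM in the libraries labelled Zak-deficient and at 0.08, 0.11 and 14.1 FPKM in WT. Pttg1 (chromosome 11, 43420244 to 43427463), which encodes securin, the inhibitor and chaperone of separase, stood at 39.3, 28.3 and 17.5 FPKM in the libraries labelled Zak-deficient and at 40.1, 37.2 and 15.3 FPKM in WT. Espl1 was 12.4-fold and 13.9-fold higher at 48 h than at 0 h, and Pttg1 was 2.18-fold and 2.53-fold lower. Both genotypes showed the same order of times for each gene.

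At the centromere, Cenpa, the histone H3 variant that marks it, was abundant at every time. It had 64.7, 34.8 and 100.1 FPKM at 0, 6 and 48 h in the libraries labelled Zak-deficient, against 55.0, 29.8 and 105.9 FPKM in WT. It was thus lowest at 6 h, and its difference at 48 h against 0 h (1.54-fold and 1.91-fold) was the 1 that stayed within 2-fold in both genotypes. Cenpk and Cenpm, subunits of the inner kinetochore network on Cenpa chromatin, were low at rest and reached 16.9 and 30.1 FPKM in the library labelled Zak-deficient and 19.0 and 29.1 FPKM in WT.

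In the outer kinetochore, the NDC80 complex holds the microtubule. Its subunit Ndc80 (chromosome 17, 71496100 to 71526857) had 13.2, 5.74 and 27.6 FPKM in the libraries labelled Zak-deficient and 11.7, 5.26 and 30.5 FPKM in WT. Its partner Nuf2 had 0.34, 0.29 and 33.5 FPKM in the libraries labelled Zak-deficient and 0.45, 0.39 and 38.0 FPKM in WT. Ndc80 was lowest at 6 h and only 2.02-fold and 2.48-fold higher at 48 h than at 0 h, whereas Nuf2 was 25.7-fold and 26.9-fold higher. Spc25, which anchors the complex together with Spc24, reached 31.8 and 33.2 FPKM, and Spc24 is described with the genotypes below. Knl1, the scaffold for checkpoint proteins, the motor Cenpe and the corona protein Cenpf ended lower, between 7.58 and 11.8 FPKM at 48 h in the 2 genotypes.

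All 9 kinesins were higher at 48 h in both genotypes, with a median log2 difference of 4.10 in the libraries labelled Zak-deficient and 4.35 in WT. Kif11 (chromosome 19, 37376382 to 37421863), the motor that pushes the spindle poles apart, had 0.94, 0.87 and 64.8 FPKM in the libraries labelled Zak-deficient and 0.69, 1.02 and 66.7 FPKM in WT, the highest kinesin at 48 h. Kif2c, a microtubule depolymerase, Kif18b, a motor at microtubule ends, Kif4, a chromosome arm motor, and Kif20a, a central spindle motor, reached between 20.4 and 35.5 FPKM from under 1 FPKM. Kif20b, a motor of late cytokinesis, started from 2.81 and 2.70 FPKM and had the smallest difference, 3.77-fold and 4.32-fold. Kif22 is a chromosome arm motor and Kif23 the motor of the central spindle, and they reached 39.8 and 21.8 FPKM in the library labelled Zak-deficient and 44.2 and 24.3 FPKM in WT.

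The genes for spindle microtubule proteins were higher at 48 h in 6 of 6 cases in both genotypes. Tpx2, the activator of Aurka on the spindle, had 0.51, 0.37 and 45.0 FPKM in the libraries labelled Zak-deficient and 0.48, 0.55 and 47.9 FPKM in WT, and Nusap1, which bundles microtubules near chromosomes, reached 52.29 and 51.99 FPKM. Both were near 0 until 6 h. Prc1, the crosslinker of the central spindle, Hmmr and Dlgap5, microtubule-binding proteins of the spindle, and Ckap2 ended between 15.0 and 27.3 FPKM.

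The condensin and mitotic chromosome genes held the gene with the largest difference of the set. Top2a (chromosome 11, 98992947 to 99024199), the topoisomerase that untangles sister chromatids, had 1.13, 1.0 and 135 FPKM at 0, 6 and 48 h in the libraries labelled Zak-deficient, against 1.28, 1.02 and 156 FPKM in WT. Mki67, the coat of mitotic chromosomes and the source of the Ki-67 antigen, had 0.80, 0.33 and 75.2 FPKM in the libraries labelled Zak-deficient, against 0.51, 0.28 and 92.6 FPKM in WT. Top2a was 63.9-fold and 69.0-fold higher at 48 h, the largest difference of the 53 in both genotypes, and ranked 3rd and 2nd among the 10347 genes. Mki67 was 42.3-fold and 62.0-fold higher.

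Smc4 (chromosome 3, 69004738 to 69034623), one of the ATPase arms of condensin, ran the other way. It had 330.4, 159 and 138 FPKM in the libraries labelled Zak-deficient and 318, 189 and 141 FPKM in WT, the highest of the 53 in all 0 h and 6 h libraries, and was 2.39-fold and 2.25-fold lower at 48 h than at 0 h. Its partner arm Smc2 had 5.77, 4.27 and 38.2 FPKM in the libraries labelled Zak-deficient and 5.74, 5.02 and 40.03 FPKM in WT. The other subunits of condensin I, Ncapd2, Ncapg and Ncaph, reached 91.5, 29.2 and 45.7 FPKM in the library labelled Zak-deficient and 97.8, 33.7 and 48.4 FPKM in WT. Of this complex, only Smc4 was lower at 48 h than at rest.

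Cytokinesis is steered by Ect2, which activates the GTPase RhoA at the cell equator, by Racgap1, the partner of Kif23 in centralspindlin, and by the scaffold anillin (Anln). Racgap1 had 2.14, 1.53 and 41.7 FPKM in the libraries labelled Zak-deficient and 2.44, 1.39 and 43.9 FPKM in WT. Ect2 reached 14.7 and 15.8 FPKM and Anln 7.71 and 7.90 FPKM, so Anln was lower at 48 h than both partners in each genotype. All 3 were higher at 48 h than at 0 h by 4.66-fold or more.

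In 4 of the 5 complexes compared, subunits were closer in RNA level at 48 h than at rest, and in centralspindlin they were not. In the chromosomal passenger complex, the highest subunit stood 1.47-fold (libraries labelled Zak-deficient) and 1.33-fold (WT) above the lowest at 48 h, against 29.0-fold and 22.0-fold at 0 h. In the mitotic checkpoint complex (Bub1b, Bub3, Mad2l1 and Cdc20) this ratio of FPKM was 1.58 and 1.51 at 48 h and 28.4 and 22.8 at 0 h. Condensin I had the widest range, with the ratio of Smc4 to Ncapg at 4.73 and 4.19 at 48 h and 1032.5 and 1327 at 0 h. In the NDC80 complex the ratio was 5.44 and 1.66 at 48 h and 49 and 26.0 at 0 h, and the 48 h value in the library labelled Zak-deficient was set by Spc24 over Ndc80. The 2 genes of centralspindlin, Kif23 and Racgap1, were farther apart at 48 h, with a ratio of 1.91 and 1.80 at 48 h and 1.69 and 1.08 at 0 h. These complexes were picked after their values had been seen, and ratios over a gene near 0 rest on few fragments.

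**Figure D3:**
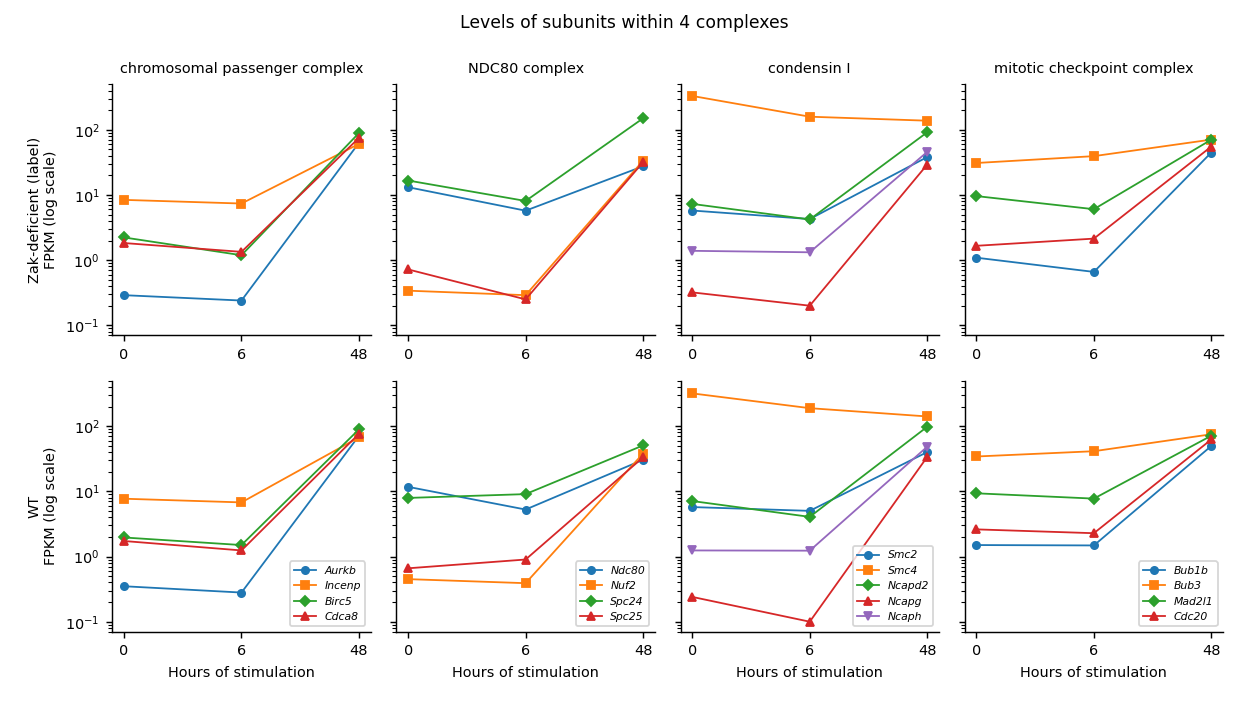
FPKM on a log axis at 0, 6 and 48 h (evenly spaced) of the subunits of 4 complexes, in the libraries labelled Zak-deficient (upper row) and in WT (lower row). Highest and lowest subunit are 1.33-fold to 5.44-fold apart at 48 h, against 22.0-fold to 1327-fold at 0 h.

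At 6 h the set as a whole had not moved up. Of the 53 genes, 1 was higher by 2-fold or more and 2 were lower in each genotype, against 9.08% higher and 1.52% lower of the 10347 genes in the libraries labelled Zak-deficient and 8.94% higher and 1.39% lower in WT. The median log2 difference of the set at 6 h was -0.20 in the libraries labelled Zak-deficient and -0.13 in WT, against -0.08 and -0.06 for all 10347 genes, and 43 and 38 of the 53 lay below 0, against 55.9% and 54.5% of the 10347 genes. The comparisons at 6 h and at 48 h share their 0 h library within each genotype.

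The exception was Kif15 (chromosome 9, 122951081 to 123018733), a motor that cooperates with Kif11 in keeping the spindle bipolar. It had 0.88, 9.54 and 27.0 FPKM at 0, 6 and 48 h in the libraries labelled Zak-deficient and 0.85, 12.5 and 27.0 FPKM in WT. At 6 h it was 5.61-fold and 7.32-fold higher than at 0 h, while the other 8 kinesins lay between a log2 difference of -1.12 and 0.26. Its transcripts carry 125 of the 24-base sequences that occur in transcripts of 50 or more genes, a measure described with Spc24 below, and the part of these in its 6 h value was not tested.

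**Figure D4:**
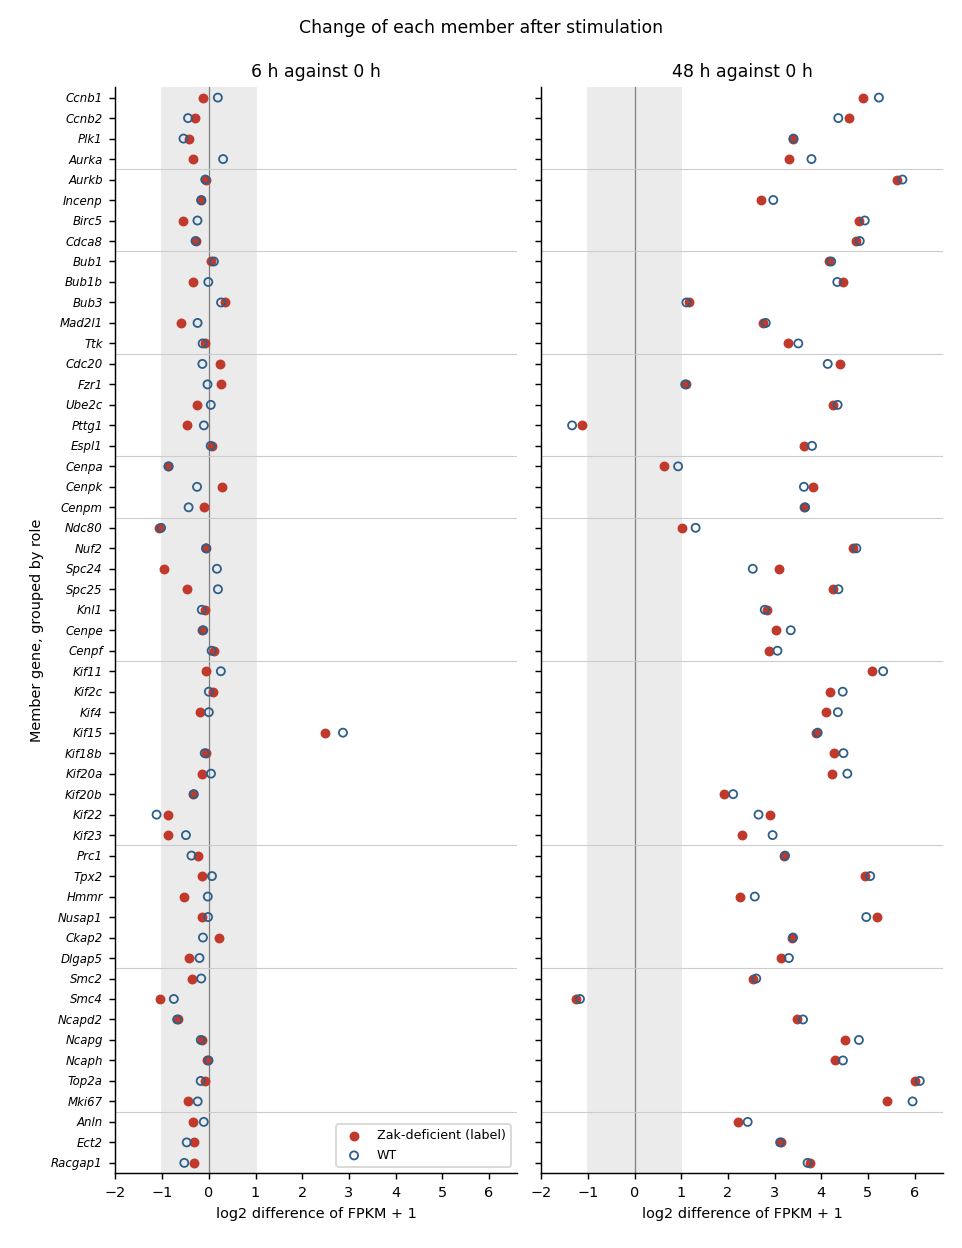
log2 difference of FPKM + 1 for each of the 53 genes at 6 h against 0 h (left) and 48 h against 0 h (right), with filled points for the libraries labelled Zak-deficient, open points for WT and grey for differences under 2-fold. At 6 h nearly all genes lie in the grey band and Kif15 stands out at 2.49 and 2.87, while at 48 h 50 genes lie above the band and Pttg1 and Smc4 below it.

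Lower by 2-fold or more at 6 h in both genotypes was 1 gene, Ndc80, with log2 differences of -1.07 in the libraries labelled Zak-deficient and -1.02 in WT. Smc4 passed 2-fold in the libraries labelled Zak-deficient (-1.05) and stood at -0.75 in WT, and Kif22 passed it in WT (-1.12) and stood at -0.87 in the libraries labelled Zak-deficient. Cenpa came close in both, with -0.88 and -0.86. The condensin and mitotic chromosome genes lay below 0 in 7 of 7 cases in each genotype, among them Ncapd2 at -0.67 and -0.68. Of the whole set, 34 genes lay below 0 in both genotypes and 5 above 0 in both, Bub1, Bub3, Espl1, Cenpf and Kif15. The matching shares of the 10347 genes were not computed. Bub1, Espl1 and Cenpf stood at 0.27 FPKM or less at 0 and 6 h in both genotypes, so their sign says little. Counted from 6 h instead of 0 h, 49 genes were higher and 0 lower at 48 h in the libraries labelled Zak-deficient, and 50 were higher and 1, Pttg1, lower in WT, against 10.8% higher and 6.55% lower, and 9.32% higher and 6.15% lower, of the 10347 genes.

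Between the genotypes few genes of the set were 2-fold apart on log2(FPKM+1) at any time. Of the 53 genes, 0 differed by 2-fold or more at 0 h, 0 at 6 h and 1 at 48 h, in either direction, against 0.271%, 0.251% and 2.23% of the 10347 genes. Counts of 0 and 1 among 53 genes are near these shares, so they do not mark the set off from other genes. In each library at 0 and 6 h, 24 or 25 of the 53 were under 1 FPKM. Adding 1 FPKM leaves such genes little room to pass 2-fold, so the counts at 0 and 6 h cannot show that they were alike. The median log2 difference, the library labelled Zak-deficient minus WT, was 0.03 at 0 h, -0.02 at 6 h and -0.09 at 48 h, and with a common FPKM sum the 6 h value turned to 0.011. At 48 h, 52 of the 53 genes differed by 1.23-fold or less. A shift of this size may lie within the spread of like libraries, which is not known here.

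The small difference at 48 h pointed the same way in most genes. In 48 of 53 (90.6%) the library labelled Zak-deficient had the lower level, against 53.9% of the 10347 genes and 27 of 39 DNA replication genes. Among other lists described below, it was lower in 17 of 20 mitotic entry and exit regulators and 11 of 14 cohesin genes. Shares were smaller in the further cytokinesis (10 of 16), kinetochore and centromere (15 of 29), core APC/C (8 of 14) and centrosome genes (6 of 12). Of the 53, Mki67 (75.2 FPKM in the library labelled Zak-deficient and 92.6 FPKM in WT), Ccnb1 (42.1 and 51.6 FPKM) and Cenpe (9.49 and 11.8 FPKM) had the lowest log2 differences, -0.30, -0.29 and -0.29. The 5 genes above 0 were Spc24, Pttg1 (0.18), Ube2c (0.11), Cenpm (0.05) and Nusap1 (0.01). With a common FPKM sum 4 genes were above 0, and with median-ratio scaling 2. By role, the median ran from -0.06 for the APC/C group to -0.15 for the kinesins, of which 9 of 9 were below 0. The median of all 10347 genes was -0.01 as deposited and -0.17 after median-ratio scaling, and the set differed from it by -0.08 to -0.09 as deposited and under each of the 3 scalings tried. Across the 3 times, on values as deposited, 9 genes were below 0 each time (Ccnb2, Aurkb, Bub1b, Bub3, Cdc20, Nuf2, Knl1, Kif22 and Top2a) and 1 above 0 each time (Cenpm). The matching shares of the 10347 genes were not computed, so these counts do not mark the set off from other genes.

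**Figure D5:**
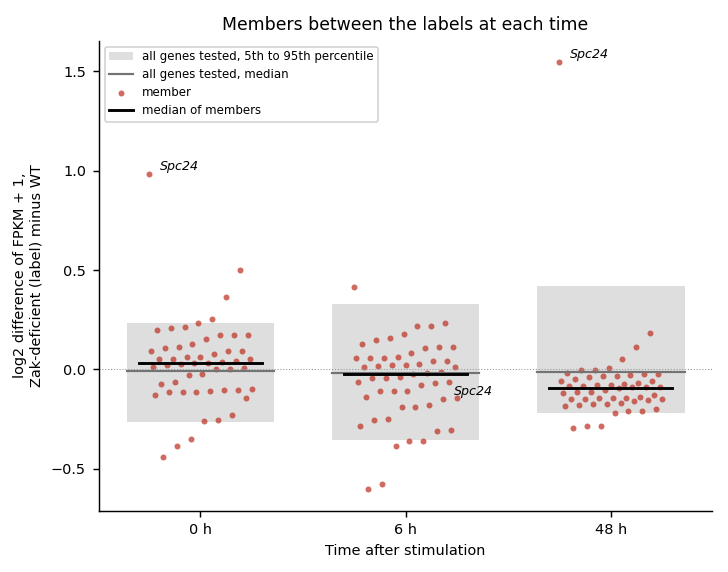
log2 difference of FPKM + 1, libraries labelled Zak-deficient minus WT, for each of the 53 genes (points) at 0, 6 and 48 h, with their median (black line), the median of all 10347 genes (grey line) and their 5th to 95th percentile (grey box). Spc24 stands apart at 0 h (0.98) and 48 h (1.55), and at 48 h the other genes form a narrow band of which 48 lie below 0.

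Spc24 (chromosome 9, 21755434 to 21760446, minus strand) was the 1 gene past 2-fold between the genotypes. It had 16.7, 8.09 and 149.9 FPKM at 0, 6 and 48 h in the libraries labelled Zak-deficient, against 7.93, 9.07 and 50.6 FPKM in WT. It was thus higher under the Zak-deficient label at 0 h (1.98-fold) and at 48 h (2.92-fold) and slightly lower at 6 h (log2 difference -0.15). Spc25, with which it forms a dimer, had 31.8 FPKM at 48 h in the library labelled Zak-deficient and 33.2 FPKM in WT, so the difference was not shared by its partner. Spc24 transcripts in GENCODE M21 hold 130 of the 24-base sequences that occur in transcripts of 50 or more genes, out of 2661 sequences of that length. This is the highest number among the 53 genes, of which 32 hold at least 1. Next came Kif15 (125 of 11149), Anln (110 of 9122) and Racgap1 (109 of 7266). Kif23 (108 of 7976), Knl1 (106 of 8561) and Ckap2 (101 of 3191) followed. The log2 differences of these genes between the genotypes at 48 h lay between -0.15 and -0.0041. In each of them such sequences were a smaller share than in Spc24. Among genes with a transcript in GENCODE M21, 178 were 2-fold or more higher at 48 h in the library labelled Zak-deficient. Of these, 86.0% hold at least 1 such sequence, against 11.9% of the 42 lower ones and 48.4% of 10211 genes in all. Whether reads from such sequences account for the Spc24 value was not tested. Without Spc24 the median of the set at 48 h was -0.10, and over the 21 genes that hold no such sequence it was -0.11.

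The responses of the genotypes were also set against each other. Of the 53 genes, 0 had a response at 48 h against 0 h that differed by 2-fold or more between the genotypes, and 1, Spc24, had such a response at 6 h (log2 difference -1.13), against 1.78% and 0.580% of the 10347 genes. The median difference of the 48 h responses was -0.11, against 0.005 for all 10347 genes. In 40 of the 53 genes the log2 difference was larger in WT, against 48.9% of the 10347 genes. That count was 35 with a pseudocount of 0.1 FPKM. With median-ratio scaling it was 46, and the median of the 10347 genes was then -0.11 as well. Kif23, with 21.8 FPKM at 48 h and 3.61 FPKM at 0 h in the libraries labelled Zak-deficient and 24.3 and 2.26 FPKM in WT, was the farthest below 0 (-0.65), and Mki67 followed (-0.55). These values use the same 48 h and 0 h libraries as the comparisons above and add no independent measurement.

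Reads that overlap on opposite strands are a further limit, since the sources used here do not say whether counting used strand. Cdca8, Bub3, Cdc20, Fzr1, Ube2c, Cenpk, Kif4, Kif20a, Prc1, Nusap1 and Ncapg, 11 of the 53, overlap another protein-coding gene, in each case on the opposite strand.

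Genes that work beside the 53 gave the setting. Their counts are read against all 10347 genes. Of these, 18.5% in the libraries labelled Zak-deficient and 17.8% in WT were higher by 2-fold or more at 48 h. The mitotic entry and exit regulators were higher by 2-fold or more at 48 h in 15 of 20 cases in each genotype, among them Ccna2 (cyclin A2) and Cdk1, the kinase of cyclin B. Ccna2 had 75.8 FPKM at 48 h and 0.53 at 0 h in the libraries labelled Zak-deficient and 82.7 and 0.43 FPKM in WT. Cdk1 had 39.5 FPKM at 48 h and 0.24 at 0 h in the libraries labelled Zak-deficient and 46.2 and 0.28 FPKM in WT. Further kinetochore and centromere genes were higher in 19 of 29 in each genotype, led by Cenph, Kntc1 and Cenpn. The core APC/C subunits, in contrast to the activator Cdc20, were higher in 1 of 14 (Anapc15) in each genotype. The median log2 difference of the 14 was 0.22 in the libraries labelled Zak-deficient and 0.34 in WT. Of cohesin and its regulators, 5 of 14 were higher in each genotype, among them Cdca5 (sororin), Esco2 and Sgo1 (shugoshin). Lower were 2 of 14 in the libraries labelled Zak-deficient (Mau2 and Nipbl, which load cohesin) and 1 of 14 in WT (Mau2), near the 12.0% and 12.3% of all 10347 genes.

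Further cytokinesis genes were higher in 8 of 16 in each genotype, and Cep55, the midbody scaffold, stood at 24.9 FPKM in the library labelled Zak-deficient and 26.7 FPKM in WT at 48 h. Rhoa, the target of Ect2, was within 2-fold, with 174 FPKM at 48 h and 278 at 0 h in the libraries labelled Zak-deficient and 172 and 280.2 FPKM in WT. Centrosome genes were higher in 3 of 12 in the libraries labelled Zak-deficient and 2 of 12 in WT, among them Stil and Plk4, which drive centriole duplication. These shares are near the 18.5% and 17.8% of all 10347 genes that were higher. In condensin II, Ncapg2 was higher in both and Ncapd3 was within 2-fold. Of the 12 MuvB, DREAM and NF-Y subunits, 2 were higher in the libraries labelled Zak-deficient and 1 in WT, and 1 was lower in each. These counts are near the shares of all 10347 genes, 18.5% and 17.8% higher and 12.0% and 12.3% lower. Tfdp1 was higher in both genotypes. Rbl2 (p130), a subunit of the repressive DREAM complex, was lower in both. Its level was 16.0 FPKM at 48 h and 37.4 FPKM at 0 h in the libraries labelled Zak-deficient. In WT it was 15.6 and 35.5 FPKM. The 53 had a median level of 1.13 and 1.24 FPKM at 0 h, against 8.50 and 8.66 FPKM for the DNA replication genes. Of these, 35 of 39 were higher at 48 h in the libraries labelled Zak-deficient and 36 of 39 in WT, with median log2 differences of 2.41 and 2.40. In none of these lists did a gene differ by 2-fold or more between the genotypes at 48 h, against 2.23% of the 10347 genes. The largest difference was that of Nsl1, a subunit of the MIS12 complex that ties Spc24 and Spc25 to the centromere, with 33.0 FPKM in the library labelled Zak-deficient and 17.2 FPKM in WT (log2 difference 0.90).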

How the data were processed

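RNA was sequenced from 6 cultures, 1 library per group. The authors deposited 1 FPKM value per gene and library. Bowtie, RSEM and mm10 are named in the submitters' processing notes. Their versions and settings, and whether counting used strand, are details not given in the sources used here. FPKM values were used without rescaling, and differences were taken on log2(FPKM + 1). Each group has 1 library and no test was made. Genes at least 2-fold apart were counted, beside the share of the 10347 genes averaging at least 1 FPKM over the 6 libraries. The calculation was tested on simulated data. No depth per library is known.

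Symbols (for 18326 of 18446 genes) and gene positions came from RefSeq, and strands, overlaps and transcripts from GENCODE M21 (GRCm38, the assembly of mm10). A 24-base sequence counted as shared when transcripts of 50 or more genes held it, which gave 13798 sequences. Motifs were searched on both strands of RefSeq promoters.

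The 53 genes and the other lists were chosen with earlier results of these data known. All 53 could be named, and of every other list up to 3 genes with the largest difference each way at 48 h against 0 h in WT and between the genotypes at 48 h, with Map3k20. The complexes, the motifs, the promoters shown and the check of shared sequences were chosen after the values had been seen.

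Results were recomputed with another pseudocount (0.1 or 5 FPKM), another scaling (a common FPKM sum, median ratio or upper quartile), another fold rule (1.5-fold or 4-fold), or other genes counted (a mean of 1 or 5 FPKM or more, and, added after the data were seen, without Spc24 or only genes with no shared sequence), 1 change at a time. Python 3.11.15, numpy 2.4.6, pandas 2.3.3 and matplotlib 3.10.9 were used.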

Additional observations from a re-analysis of the deposited data

Results flagged for a closer look

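Spc24, the partner of Spc25 in the NDC80 complex, differed in opposite directions at 6 h against 0 h. Its log2 difference was -0.96 in the libraries labelled Zak-deficient (8.09 FPKM at 6 h and 16.7 FPKM at 0 h) and 0.17 in WT (9.07 and 7.93 FPKM). With 1 library per group the difference between the genotypes was not tested. Opposite signs at 6 h were found in 12 of the 53 genes, and Spc24 is the 1 in which either genotype moved by 1.5-fold or more. At 48 h, 0 genes had opposite signs.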

How the results depend on the processing

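At 48 h against 0 h or 6 h, the counts of genes past 2-fold stayed within 1.5 times under every alternative, and only the medians moved with the pseudocount. With 0.1 FPKM the medians against 0 h were 4.62 in the libraries labelled Zak-deficient and 4.55 in WT, and against 6 h 4.69 and 4.88. With 5 FPKM they were 2.33 and 2.44, and 2.38 and 2.49. Single genes near the limit dropped under 2-fold, such as Fzr1 with 5 FPKM (0.96 and 0.95) and Ndc80 in the libraries labelled Zak-deficient (0.84). Counts at 6 h against 0 h are small: in the libraries labelled Zak-deficient 8 genes with a pseudocount of 0.1, 9 at 1.5-fold and 1 at 4-fold, and in WT 1 with a pseudocount of 5, 6 at 1.5-fold and 1 at 4-fold. Between the genotypes at 0 h, 1 gene was counted with a pseudocount of 0.1, with a common FPKM sum and at 1.5-fold. At 6 h, 2 were counted with a pseudocount of 0.1 and 1 at 1.5-fold, and at 48 h, 0 at 4-fold and 0 without Spc24. For the difference of responses, 1 gene was counted at 48 h at 1.5-fold. At 6 h it was 4 with a pseudocount of 0.1, 0 with 5, 3 at 1.5-fold and 0 at 4-fold. The median between the genotypes at 6 h turned to 0.011 with a common FPKM sum, and that of the difference of responses at 6 h to 0.017 with a common FPKM sum and 0.031 with median-ratio scaling, so neither has a settled sign. The causes of these shifts were not tested. No paired analysis was possible because each group has 1 library and the labels give no replicate numbers to pair. The genotypes share only their times, which are conditions and not replicates. Depth is not known, so the error of genes under 1 FPKM at rest, 24 of the 53, cannot be stated.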
